A study of Mus musculus with 11 samples.

Results

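Immunoglobulin heavy and light chain genes were followed probe set by probe set in splenic B cells of the mouse. A probe set was a member if every symbol given to it in the annotation of the Mouse Genome 430 2.0 array belonged to the heavy chain locus (Igh), the kappa or lambda light chain locus (Igk, Igl), or was Jchain, with Ighmbp2 left out. The rule used names and no measured values. It found 56 of the 45101 probe sets of the array, which were 18 for heavy chain constant regions (11 for Ighm, 4 for Ighg3 and 3 for Igha), 1 for a heavy chain variable segment (Ighv14-2), 4 naming heavy variable and constant segments together, 4 for the kappa locus as a whole (Igk), 21 for kappa variable segments, 3 naming kappa variable and constant segments together, 4 for lambda and 1 for Jchain.

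A B cell assembles 1 heavy and 1 light chain from variable, diversity and joining segments during its development and joins them to a constant region. In a naive B cell the heavy chain is mainly of the IgM and IgD classes and sits in the membrane as the antigen receptor with the signalling partners Cd79a and Cd79b. A plasma cell secretes the protein instead and holds far more of its messenger RNA, and class switching replaces the IgM constant region (Ighm) by that of IgG (such as Ighg3) or IgA (Igha). The joining chain, Jchain, links the units of secreted IgM and IgA. Which variable segments are abundant in a pool of B cells depends on which clones it holds.

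The study compared B cells of NOD/ShiLtJ (NOD) mice, which develop autoimmune diabetes, with those of NOD.NOR-Chr4/DvsJ (NR4) mice, NOD mice that carry chromosome 4 material of the NOR strain. There were 11 arrays in 4 groups, which were 2 of NOD cells with anti-IgM, 3 of unstimulated NOD cells, 3 of NR4 cells with anti-IgM and 3 of unstimulated NR4 cells. All mice were 6-week-old females, B cells were enriched by magnetic removal of other cells from 3 lots of 7 to 8 pooled spleens per strain, and every culture lasted 2 h, with 10 µg/ml of goat F(ab')2 fragments against mouse IgM, which crosslink the B cell receptor, or in medium alone. Replicates of a group are thus pools of different animals, but both cultures of a strain drew on the same lots, and nothing in the labels ties the replicate numbers to the lots. Neither the heavy chain locus (chromosome 12) nor the kappa (chromosome 6), lambda (chromosome 16) or Jchain (chromosome 5) genes lie on chromosome 4.

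Values are log2 signals that were deposited with the median of each probe set over the 11 arrays set to 0. A value of 1 is therefore 2-fold above that probe set's own median, and levels of different genes, detection and the labelled cell type could not be read from the values. In whole cell RNA, fewer cells of a type and less RNA per cell cannot be told apart. A difference was called when its p from limma, adjusted over all 45037 probe sets other than controls, was below 0.05. The mean difference between the 3' and 5' control probe sets of Gapdh and actin bears on RNA integrity. It was 0.21 and 0.13 in anti-IgM NOD cells, against -0.01, -0.04 and -0.08 in unstimulated NOD cells, with no overlap. In NR4 it was 0.96, 0.04 and 0.23 with anti-IgM, against -0.05, -0.07 and 0.29 unstimulated, so that NR4 anti-IgM replicate 1 stood far above the other 10 arrays. It was higher with anti-IgM in 4 of 5 comparisons of arrays with the same number.

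The array sees a small part of these loci. RefSeq (GRCm38.p6) lists 399 genes that meet the rule, and the members carry 28 of their symbols, among them 2 of 183 Ighv, 17 of 162 Igkv and 1 of 3 Iglv genes. No member stands for Ighd, Ighe or a heavy chain joining segment. The classes follow the symbols of the annotation, and which part of a transcript the probes match was not checked. Of the 56 probe sets, 43 carry 1 symbol (20 different ones) and 13 carry several, and 17 have identifiers ending in x_at, which the maker gives to sets whose probes can match other transcripts. Furthermore, 17 of the probe sets were designed from only 8 source sequences, among them Ighm 1427869_at with 1427870_x_at, and both Igkv19-93 sets with the Igkv4-68 set. They are therefore not independent readings, and variable segments of a family resemble each other enough for their signals to mix.

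Immunoglobulin probe sets varied more between arrays than most of the array. Their range over the 11 arrays had a median of 0.951 log2 units, against 0.736 for all probe sets, and exceeded 1 in 26 of 56 (46.4%), against 27.7% of all. The median residual SD within groups was 0.243 for members and 0.215 for all. The widest were heavy chain constant regions, with a median range of 1.58, and the narrowest were the 3 sets that name kappa variable and constant segments together, whose ranges lay between 0.17 and 0.41.

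**Figure D1:**
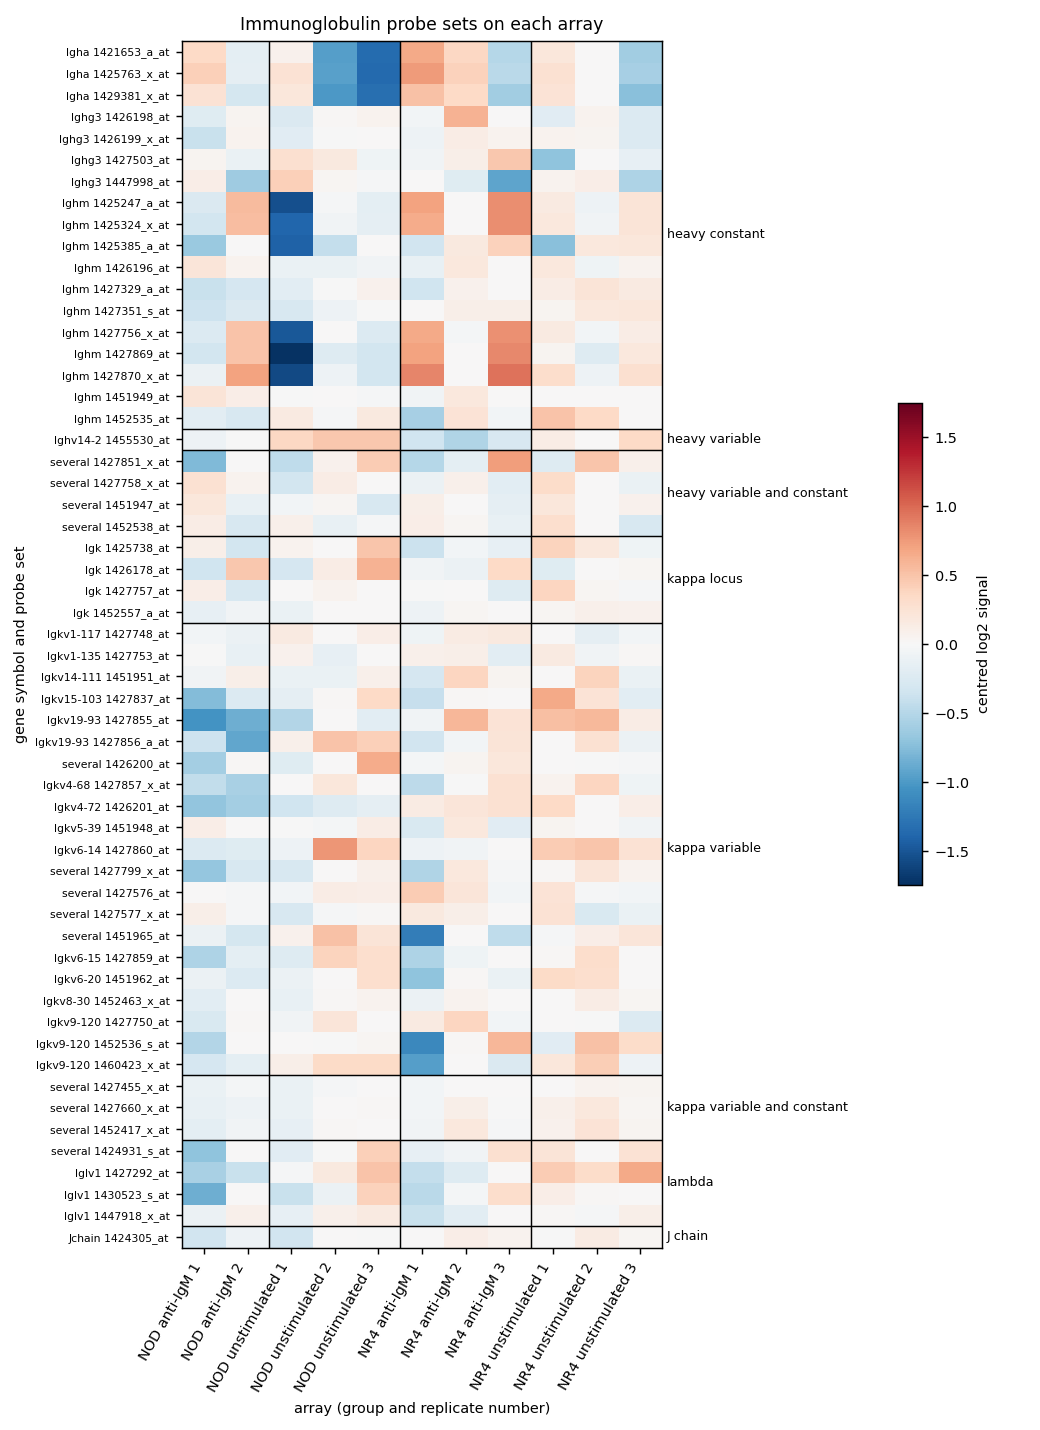
Centred log2 signal of the 56 immunoglobulin probe sets (down the page, by class) on the 11 arrays (across), with colour for the value relative to each probe set's median. A block of Ighm sets is low on NOD unstimulated replicate 1, the 3 Igha sets differ by replicate number, and many variable segment sets are low on NOD anti-IgM replicate 1.

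With anti-IgM, 2 variable segments fell when the response was averaged over strains, and no member rose. They were the lambda segment Iglv1 (1427292_at) and the heavy chain segment Ighv14-2 (1455530_at). These are 2 of 56 members, while limma called 1.01% of all probe sets, 0.591% lower and 0.422% higher. At an unadjusted p below 0.05, 14 members were lower and 2 higher with anti-IgM, 28.6% of the members against 10.6% of all probe sets. The median difference, anti-IgM minus unstimulated, was -0.07 for members, negative in 36 of 56, and 0.00 for all probe sets. In 4 members (7.14%, against 3.22% of all probe sets) the stimulated arrays lay below the unstimulated ones in both strains without overlap, and in none did they lie above (1.94% of all probe sets). Taking arrays of the same number, anti-IgM was lower in 5 of 5 comparisons for 15 members (26.8%, against 9.22%) and higher in 5 of 5 for 9 members (16.1%, against 6.48%). The 3' to 5' gap of the control transcripts, given above, was also mostly higher with anti-IgM, and its part in these differences was not tested. Without NR4 anti-IgM replicate 1, where that gap was widest, the averaged difference was -0.65 for Iglv1 (limma adjusted p = 0.061) and -0.52 for Ighv14-2 (adjusted p = 0.049).

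Iglv1 encodes the variable region of a light chain type that few mouse B cells use. On 1427292_at it was at -0.57 and -0.40 in anti-IgM NOD cells, against -0.02, 0.16 and 0.50 in unstimulated NOD cells. In NR4 it was at -0.42, -0.23 and 0 with anti-IgM, against 0.45, 0.31 and 0.66 unstimulated. Every stimulated array lay below every unstimulated array of its strain. The difference averaged over strains was -0.70 (SE 0.12, limma adjusted p = 0.034). By limma it was -0.69 in NR4 (adjusted p = 0.17, SE 0.16) and -0.70 in NOD (adjusted p = 0.48, SE 0.18), and the NR4 difference was called when the replicate number was a block (limma adjusted p = 0.039). The call did not extend to the other Iglv1 probe sets, which differed by -0.25 on 1430523_s_at (limma adjusted p = 0.83, SE 0.21) and by -0.13 on 1447918_x_at (adjusted p = 0.79, SE 0.10), and with 1 averaged value per gene Iglv1 was not called (-0.34, limma adjusted p = 0.35). Leaving out any 1 array gave -0.75 to -0.62, and the call held in 1 of 11 such fits.

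Ighv14-2 is 1 variable segment of the heavy chain. It was at -0.09 and -0.01 in anti-IgM NOD cells, against 0.37, 0.47 and 0.47 in unstimulated NOD cells. In NR4 it was at -0.35, -0.52 and -0.28 with anti-IgM, against 0.13, 0 and 0.35 unstimulated, so the groups did not overlap in either strain. The averaged difference was -0.52 (SE 0.09, limma adjusted p = 0.030). By limma it came to -0.55 in NR4 (adjusted p = 0.13, SE 0.12) and -0.49 in NOD (adjusted p = 0.52, SE 0.13). The NR4 difference was called with the replicate number within strain as a random block (limma adjusted p = 0.028). Quantile normalization ended the averaged call (limma adjusted p = 0.052). Without 1 array it ranged from -0.56 to -0.47 and was called in 4 of 11 fits. The 3 probe sets whose symbols include Ighv14-2 among others differed by -0.03, 0.01 and 0.04 and were not called.

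None of the 21 kappa variable probe sets was called, although 17 had a negative averaged difference with anti-IgM (median -0.32). Of these, 9 had an unadjusted p below 0.05. Igkv6-14 (1427860_at) came closest to a call. It was at -0.24 and -0.21 in anti-IgM NOD cells, against -0.09, 0.77 and 0.37 in unstimulated NOD cells, and at -0.08, -0.07 and 0 in anti-IgM NR4 cells, against 0.44, 0.48 and 0.25 in unstimulated NR4 cells. Its groups did not overlap in either strain, and the averaged difference was -0.51 (SE 0.14, limma adjusted p = 0.15). The probe sets whose symbols include Igkv6-14 among others disagreed in sign. They differed by 0.04 on 1427576_at, 0.14 on 1427577_x_at, -0.32 on 1427799_x_at and -0.56 on 1451965_at. On NR4 anti-IgM replicate 1, the array with the large 3' to 5' gap, Igkv9-120 stood at -0.96 on 1460423_x_at and at -1.13 on 1452536_s_at, and a kappa variable set with several symbols (1451965_at) stood at -1.22. These were the lowest values of those sets, and the part of RNA integrity in them was not tested. The remaining Igkv9-120 set, 1427750_at, stood at 0.16 on that array, although it was designed from the same sequence as 1452536_s_at.

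Igkv19-93 was read by 2 probe sets made from 1 sequence, and neither was called for anti-IgM. On 1427856_a_at it was at -0.37 and -0.91 in anti-IgM NOD cells, against 0.09, 0.50 and 0.41 in unstimulated NOD cells, and at -0.34, -0.05 and 0.23 in anti-IgM NR4 cells, against 0, 0.26 and -0.10 in unstimulated NR4 cells. The NOD groups did not overlap, while those of NR4 did. The difference was -0.97 in NOD (SE 0.22, limma adjusted p = 0.31), -0.11 in NR4 and -0.54 averaged over strains. On 1427855_at it was -0.72 in NOD (SE 0.22, limma adjusted p = 0.63), -0.16 in NR4 and -0.44 averaged.

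Little difference was measured on the 3 sets that name kappa variable and constant segments together. They differed with anti-IgM by -0.08 to -0.04 (SE 0.07 to 0.08), with no call. The 4 Igk sets, which name the locus and no segment, differed by -0.33 to 0.02, with no call. The most negative was 1425738_at (SE 0.14, limma adjusted p = 0.42). The 4 lambda sets all had negative differences, from -0.70 to -0.13, of which the Iglv1 set above was called. Jchain, on 1 probe set, differed by -0.05 (SE 0.09, limma adjusted p = 0.96).

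**Figure D2:**
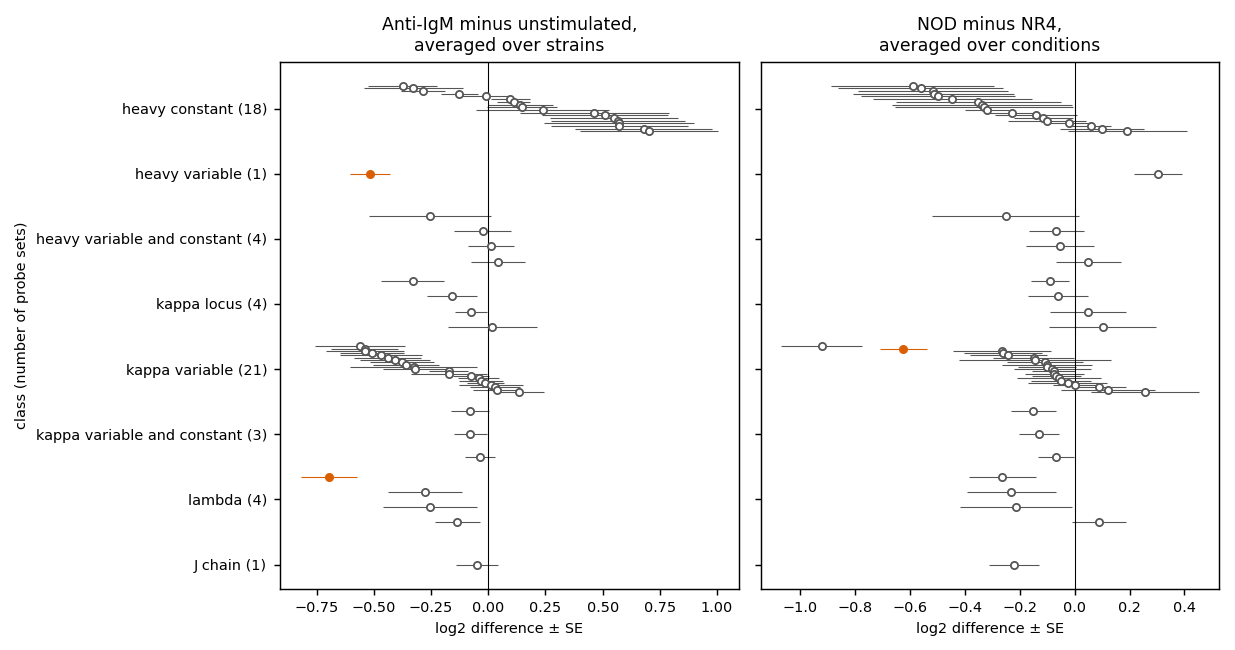
Difference (log2) for each of the 56 probe sets, with anti-IgM minus unstimulated averaged over strains and NOD minus NR4 averaged over conditions. Bars are standard errors and filled orange points passed an adjusted p of 0.05, which were Iglv1 and Ighv14-2 for anti-IgM and Igkv4-72 for strain.

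Probe sets with only heavy chain constant region symbols leaned the other way. Of these 18 sets, 13 had a positive averaged difference with anti-IgM (median 0.19), and none was called. The 11 Ighm sets split into groups that did not read alike. In 6 of them NOD unstimulated replicate 1 lay between -1.72 and -1.39, while on the other 5 that array lay between -0.28 and 0.16. On 1427869_at, the set with the widest range of all members (2.57), Ighm was at -0.32 and 0.50 in anti-IgM NOD cells, against -1.72, -0.22 and -0.32 in unstimulated NOD cells, and at 0.70, 0 and 0.84 in anti-IgM NR4 cells, against 0.05, -0.23 and 0.18 in unstimulated NR4 cells. Arrays overlapped between conditions in both strains.

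The 5 Ighm sets with the widest ranges differed with anti-IgM by 0.51 to 0.70 (SE 0.27 to 0.30, limma adjusted p = 0.43 to 0.61). Each was higher with anti-IgM in 5 of 5 comparisons of arrays with the same number, and without NOD unstimulated replicate 1 the differences were 0.30 to 0.47. The remaining set that was low on that array, 1425385_a_at, differed by 0.24 (SE 0.29, limma adjusted p = 0.92). A low unstimulated array itself raises the difference, so a split of sets by that array does not bear on the response. The other 5 Ighm sets, which were not low on NOD unstimulated replicate 1, differed by -0.37 to 0.11. Among them Ighm 1427329_a_at was lower with anti-IgM without overlap in both strains and differed by -0.29 (SE 0.10, limma adjusted p = 0.27), and 1452535_at differed by -0.37 (SE 0.15, limma adjusted p = 0.39). As probe sets of this gene gave opposite signs and none was called, no single direction can be given for Ighm.

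The 3 Igha sets read alike, within 0.24 of each other on every array. Igha 1421653_a_at was at 0.35 and -0.18 in anti-IgM NOD cells, against 0.07, -0.96 and -1.35 in unstimulated NOD cells, and at 0.67, 0.37 and -0.49 in anti-IgM NR4 cells, against 0.20, 0 and -0.60 in unstimulated NR4 cells. Conditions overlapped, and the averaged difference was 0.46 to 0.57 over the 3 sets (limma adjusted p = 0.59 to 0.77). Igha was higher with anti-IgM in 5 of 5 same-numbered comparisons. In NOD the difference on 1421653_a_at was 0.83, or 0.54 with the replicate number as a block, since no stimulated NOD array is numbered 3. The 4 Ighg3 sets differed by -0.33 to 0.15 with no call and disagreed by up to 1.39 on 1 array.

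**Figure D3:**
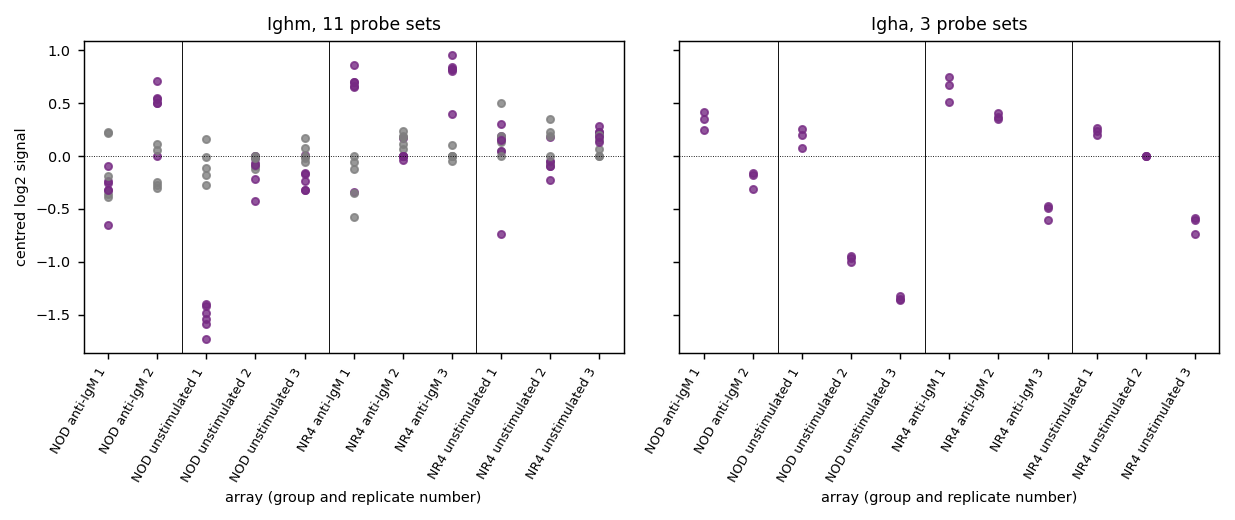
Centred log2 signal of the 11 Ighm and 3 Igha probe sets on each array, with points as probe sets and groups divided by lines. Purple marks Igha and the 6 Ighm sets below -1 on NOD unstimulated replicate 1, and grey the other Ighm sets. Igha is higher on arrays numbered 1 than on arrays numbered 3 of the same group.

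Igha went with the replicate number of the arrays. In a model of group and number, limma called 4 members, the 3 Igha sets and Ighm 1425385_a_at, while 5.91% of all probe sets were called, so the members' share was near the background. At an unadjusted p below 0.05 there were 15 members (26.8%), against 27.1% of all probe sets. Relative to number 1, the Igha sets were at -1.22 to -1.13 in number 3 and at -0.60 to -0.52 in number 2 (limma adjusted p = 0.017 to 0.021). Ighm 1425385_a_at moved the opposite way and was 0.77 higher in number 2 and 1.01 higher in number 3 (limma adjusted p = 0.014). A further quantile normalization, of the centred values, ended the Igha calls (limma adjusted p = 0.084 to 0.11). Leaving out 1 array ended them in 4 or 5 of 11 fits. Without NOD unstimulated replicate 1 no member was called. Some marker genes of other cells also went with the number, beside the 5.91% called of all probe sets. T cell sets were called in 4 of 19 (Cd5, Cd3e, Thy1, Cd247) and NK cell sets in 1 of 9 (Ccl5). Sets of B-1 cells, an innate-like B cell type, were called in 2 of 11 (Cd5, which is in both lists, and Zbtb32). Sets of marginal zone B cells were called in 1 of 12 (Cd9), and plasma cell sets in 0 of 34. No set was called of 13 for monocytes and macrophages, 12 for B cells, 5 for neutrophils, 4 for follicular B cells or 3 for erythroid cells. Counts of 1 or 2 sets are too few to tell from the share over all probe sets. Mean values of the NK list were 0.19 to 0.30 on arrays numbered 1 and -0.73 to -0.03 on arrays numbered 3, and those of the B-1 list were 0.04 to 0.36 on arrays numbered 1 and -0.40 to -0.04 on arrays numbered 3. The T cell list, at 0.08 to 0.25 on arrays numbered 1 and -0.34 to 0.08 on arrays numbered 3, and the marginal zone list, at -0.04 to 0.14 and -0.06 to 0.0035 on the same arrays, overlapped between those numbers. The part of these cells in the Igha values was not tested.

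Between the strains, 1 member fell in NOD relative to NR4, the kappa variable segment Igkv4-72 (1426201_at), and none rose. Of all probe sets, 0.118% were called, 0.0644% lower and 0.0533% higher. Unadjusted, limma gave a p below 0.05 for 6 members (10.7%), against 4.14% of all probe sets. Igkv4-72 was at -0.69 and -0.60 in anti-IgM NOD cells, against 0.14, 0.21 and 0.26 in anti-IgM NR4 cells. Unstimulated it was at -0.36, -0.22 and -0.16 in NOD cells, against 0.34, 0 and 0.11 in NR4 cells. Every NOD array lay below every NR4 array, and NOD minus NR4 averaged -0.62 (SE 0.09, limma adjusted p = 0.029). By limma it was -0.85 with anti-IgM (adjusted p = 0.11, SE 0.13) and -0.40 unstimulated (adjusted p = 1.0, SE 0.11). The call rests on all 11 arrays. Without any 1 of them the adjusted p was 0.052 to 0.22, with differences from -0.66 to -0.58, and it was 0.058 with the replicate number as a block.

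Igkv19-93 had the most negative averaged strain difference of the members on 1427855_at but was not called. It was at -1.04 and -0.86 in anti-IgM NOD cells, against -0.06, 0.58 and 0.24 in anti-IgM NR4 cells, and at -0.51, 0 and -0.18 in unstimulated NOD cells, against 0.53, 0.57 and 0.14 in unstimulated NR4 cells. The strains did not overlap in either condition, and the difference was -0.92 (SE 0.15, limma adjusted p = 0.072). It was called with the replicate number as a block (limma adjusted p = 0.023), with quantile normalization (0.046) and with array weights (0.024). The other Igkv19-93 set, 1427856_a_at, differed by -0.15 (limma adjusted p = 1.0), at -0.58 with anti-IgM and 0.28 unstimulated. Counted from the constant end of the kappa locus, Igkv4-72 is the 83rd and Igkv19-93 the 109th of 162 Igkv genes.

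Most members leaned the same way between strains without a call. NOD minus NR4 was negative in 44 of 56 members, with a median of -0.10, against 0.00 for all probe sets. It was negative in 15 of 18 heavy chain constant sets and 17 of 21 kappa variable sets. These sets are not independent readings, and the 18 stand only for Ighm, Ighg3 and Igha. Single arrays weighed on the lean, as NOD anti-IgM replicate 1 held the lowest value of 21 members and NOD unstimulated replicate 1 that of 10. NR4 anti-IgM replicate 1 held that of 11. The matching counts over all probe sets were not made, and the spread of all values differed between arrays (SD 0.17 to 0.37). In both conditions every NOD array lay below every NR4 array for 4 members (7.14%, against 0.604% of all probe sets), which were Igkv4-72, Igkv19-93, Ighm 1427351_s_at (-0.32, SE 0.08, limma adjusted p = 0.60) and 1427660_x_at, a kappa set with several symbols. Of the members, only Ighv14-2 lay above in both conditions (1.79%, against 0.937% of all probe sets), by 0.30 (SE 0.09, limma adjusted p = 0.83). Jchain was at -0.33 and -0.09 in anti-IgM NOD cells, against 0.01, 0.11 and 0.06 in anti-IgM NR4 cells, and at -0.33, 0 and -0.0033 in unstimulated NOD cells, against -0.01, 0.15 and 0.03 in unstimulated NR4 cells, a difference of -0.22 (SE 0.09, limma adjusted p = 1.0).

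**Figure D4:**
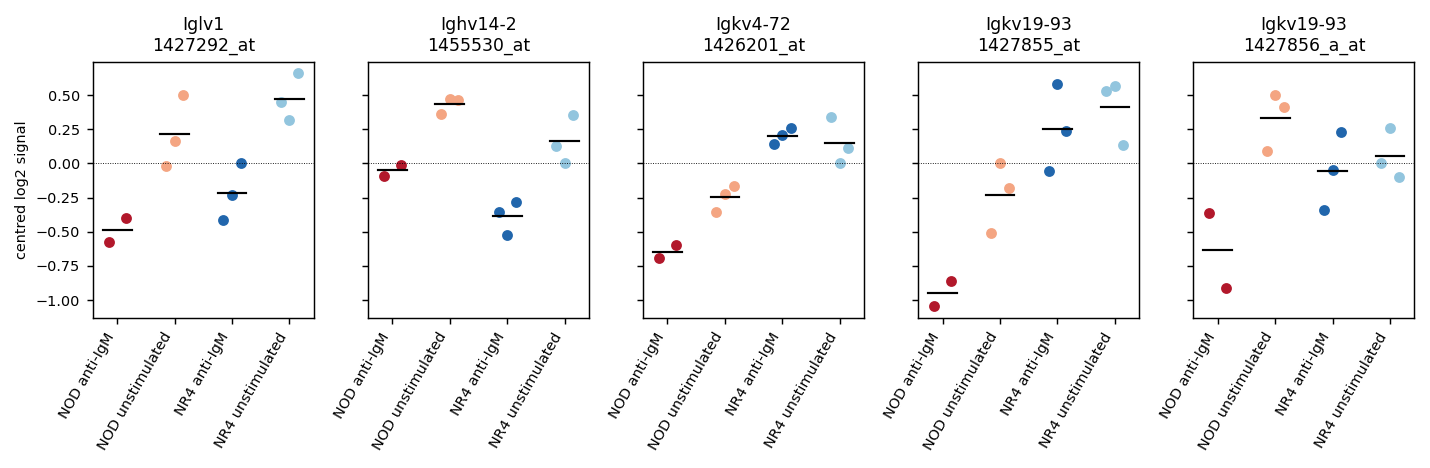
Centred log2 signal on each array for the members described most closely, with points as arrays and lines as group means. Arrays with anti-IgM lie below unstimulated ones in both strains for Iglv1 and Ighv14-2, and NOD arrays lie below NR4 arrays in both conditions for Igkv4-72 (called) and for Igkv19-93 on 1427855_at (not called) but not on 1427856_a_at.

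Genes of plasma cells, which hold the most immunoglobulin RNA, went with the strain in the mean but not in any single test. The list of 18 genes (34 probe sets) had 0 calls between strains and a median difference of -0.16, and its mean value was -0.13 to -0.01 on NOD arrays and 0.02 to 0.16 on NR4 arrays. The other cell type lists had no calls between strains either. Their median differences ran from -0.10 for neutrophils to 0.32 for NK cells, with 0.26 for follicular B cells. The part of plasma cells or of any other cell type in the lower immunoglobulin values of NOD was not tested.

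The response to anti-IgM was not shown to differ between strains for any member. The test of the difference between responses called 0 of 56 members and 0% of all probe sets. Unadjusted, limma gave p below 0.05 for 2 members, Igkv19-93 1427856_a_at (-0.87, SE 0.29) and Igkv4-72 (-0.45, SE 0.17), and for 1.59% of all probe sets. Within 1 strain, no member was called by limma for anti-IgM in NR4 (0.167% of all probe sets called) or in NOD (0.0444%). At an unadjusted p below 0.05 there were 7 members in NR4, against 9.08% of all probe sets, and 7 in NOD, against 4.82%, each 12.5% of the members. Between strains no member was called in anti-IgM cells (0.0377% of all probe sets called) or in unstimulated cells (0.0577%). Unadjusted there were 5 members in anti-IgM cells (8.93%, against 4.26%) and 4 in unstimulated cells (7.14%, against 1.53%).

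Other genes of the pathway changed with anti-IgM. Among the receptor's partners, 3 of 19 probe sets fell and none rose, namely Cd79b, the signalling partner of the receptor, at -0.62 (limma adjusted p = 0.029, SE 0.10), Vpreb3, a relative of the surrogate light chain, at -1.28 (adjusted p = 0.037, SE 0.23) and the inhibitory Fc receptor Fcgr2b at -0.66 (adjusted p = 0.043, SE 0.13). Of 61 probe sets for transcription factors that act on these loci, Irf4, which drives plasma cell formation, rose by 1.29 on 1421174_at (SE 0.10, limma adjusted p = 0.00089), while its other set, 1421173_at, was at 0.30 and was not called (SE 0.07, limma adjusted p = 0.086). Ets1, which restrains it, fell on 2 sets, at -0.86 (limma adjusted p = 0.018, SE 0.12) and -0.998 (adjusted p = 0.037, SE 0.18). None of 32 sets for recombination, switching and hypermutation was called. In the B cell marker list 4 of 12 sets fell (Cd79b, Ms4a1 on 2 sets, Fcrla), and its mean was -0.34 to -0.10 in anti-IgM NOD cells, against 0.09 to 0.14 in unstimulated NOD cells, and -0.41 to -0.20 in anti-IgM NR4 cells, against -0.06 to 0.35 in unstimulated NR4 cells. Whether the lower Iglv1 and Ighv14-2 values go with these was not tested.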

How the data were processed

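The deposited values were made by the authors with RMA, which corrects background, normalizes by quantiles and summarises probe sets, per the submitters' processing notes. The log base is not stated and the deposited values were taken as log2. The values themselves show that each probe set was centred on its median, which removes levels. Arrays carry no read depth, and their number limits precision. No arrays were identical (0 pairs).

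Of the probe sets, 34945 had 1 gene symbol in the platform annotation, 932 several and 9160 none, and 64 controls were left out. limma 3.58.1 (R 4.3.3) fitted 1 mean per group over all 11 arrays (7 residual degrees of freedom), with Benjamini-Hochberg adjustment over 45037 probe sets and a threshold of 0.05, two-sided. Replicate number was tested with an F test in a model of group and number. The fit of the averaged response and the F test of replicate number were tried on simulated data, and the other steps were not.

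Named were all constant region and Jchain sets, all called members, the 3 smallest p where fewer than 3 were called, and the 6 widest ranges. Probe sets with several symbols are given by identifier. Members and gene lists were chosen with earlier results of these data known. Deviations of same-numbered arrays correlated at 0.18 to 0.48 between NR4 conditions and at 0.36 to 0.60 between unstimulated strains. Same-numbered arrays of these groups thus deviated alike, but this does not show what a number marks, and the unstimulated strains are different animals. The main fit took no account of the number, and the replicate block did. Between NOD conditions the correlations were 0.63 and 0.16, and between stimulated NOD and stimulated NR4 arrays 0.35 and -0.15. With only 2 pairs, likeness by number was not established for comparisons that use stimulated NOD cells. Alternatives in the fit were a replicate block, the replicate number within strain as a random block, array weights and quantile normalization. Others were filters on symbols and identifiers, 1 value per gene, only the groups compared, and leaving out each array. Quantile normalization was applied to the centred values, which RMA had already normalized. It gives all arrays the same spread of centred values, whose SD was 0.17 to 0.37 before.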

Additional observations from a re-analysis of the deposited data

How the results depend on the processing

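Of 62 named values, 7 were past the threshold in the main fit. All 62 were recomputed under the alternatives that apply, and 1025 recomputed values kept direction and side of the threshold. Most of these came from values without a call, so their number says little about how firm the calls were. The filter on symbols and identifiers reused the main fit, so a value kept by it could not change. Another 52 recomputed values lost a call, all of them among the 7, and 44 of the 52 came with leaving out 1 array. A further 6 gained a call and 22 changed sign. Anti-IgM averaged over strains gave 2 calls, and gave 1 with quantile normalization and with 1 value per gene. Strain averaged over conditions gave 1 call, 2 with quantile normalization, 2 with array weights and 0 with the number within strain as a random block. Replicate number gave 4 calls, 1 with quantile normalization, 7 with array weights, 2 with only 1-symbol sets not ending in x_at, and 1 with 1 value per gene. With the replicate number as a block, the response in NR4 gave 1 call (Iglv1) against 0 without it. The random block of number within strain gave 2 (Iglv1 and Ighv14-2). No other count of calls changed with the replicate block, although the limma adjusted p of Igkv4-72 became 0.058 and that of Igkv19-93 1427855_at 0.023. Leaving out 1 array gave 0 to 2 calls for anti-IgM, 0 for strain and 0 to 6 for replicate number.

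Signs changed only for differences near 0 or by averaging unlike probe sets. With array weights the strain difference was 0.015 for Ighm 1426196_at and -0.037 for Ighg3 1427503_at. With 1 value per gene the response was 0.016 for Ighg3 and 0.247 for Ighm, and the strain difference 0.0076 for Ighg3 and -0.414 for Ighm. Leaving out 1 array gave ranges of -0.11 to 0.01 for the response of Jchain, -0.12 to 0.10 for that of Ighg3 1426199_x_at, -0.062 to 0.020 for the strain difference of Ighm 1426196_at, -0.17 to 0.0046 for Ighg3 1426198_at and -0.0055 to 0.18 for Ighg3 1427503_at. The cause was not tested. Centring removed signal over background, so it cannot be said which members were near the limit of detection.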

Other observations

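Some markers of B cell subsets other than the immunoglobulin genes also moved with anti-IgM. Called were 3 of 12 marginal zone sets and 3 of 11 B-1 sets, against 1.01% of all probe sets. In the marginal zone list, S1pr3, a sphingosine phosphate receptor, rose on both probe sets, by 1.09 (limma adjusted p = 0.013, SE 0.15) and 1.18 (adjusted p = 0.0018, SE 0.11), and Cd1d1, which presents lipids, fell by 0.54 (SE 0.11, limma adjusted p = 0.048). In the B-1 list, Cd5, a negative regulator of receptor signalling, rose by 0.95 (SE 0.18, limma adjusted p = 0.041), and Plscr1 rose on 2 sets by 0.69 (limma adjusted p = 0.013, SE 0.09) and 0.70 (adjusted p = 0.029, SE 0.12).

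The arrays did not share the low values of the immunoglobulin sets evenly. NOD anti-IgM replicate 1 held the lowest value of 21 of the 56 members, NR4 anti-IgM replicate 1 that of 11 and NOD unstimulated replicate 1 that of 10. As all probe sets were not counted in this way, the uneven share may not be particular to immunoglobulin sets.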
